A study of Rattus norvegicus with 6 samples.

Results

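The interferon response genes Stat2, Irf1, Irf7, Irf9, Mx1, Isg15, Ifih1, Ddx58 and Oas1a, were followed in rat RCS cells and rat rib tissue. They were found by symbol, 9 of the 27217 genes in the table, with 1 entry for each symbol. The rule used the symbols and no measured value, although the list was drawn up with earlier results of these data known. RCS cells are a line derived from a cartilage tumour of the rat (chondrosarcoma), and 3 libraries of total RNA came from them. The other 3 libraries came from ribs of neonatal rats, pieces in which cartilage, bone, muscle, vessels and blood cells can lie together. No genotype, strain, treatment or sex is given for either group in the labels, and the replicates are called biological without naming cultures or animals, so p-values measure the spread between these libraries only.

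Interferons are secreted signals of antiviral defence. Type I interferon binds a receptor that carries the kinases JAK1 and TYK2, which phosphorylate STAT proteins, STAT2 among them. These join IRF9 in a complex that enters the nucleus and binds the interferon-stimulated response element of many genes. Viral RNA in the cytoplasm is sensed by RIG-I (the product of Ddx58) and MDA5 (the product of Ifih1), which lead to interferon production through IRF factors. The induced proteins then act on virus directly, as MX1, ISG15 and the oligoadenylate synthetases do.

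Levels are given as normalized counts, that is reads divided by a factor common to all genes of a library. They were not divided by gene length, so a level is compared between groups and never between genes. The authors' table shows 0 wherever that value did not exceed 1. Every difference subtracts rib tissue from RCS cells on the log2(normalized count + 1) scale, where the change of a low gene is understated, and a gene was called at a limma adjusted p (Benjamini-Hochberg, over all genes tested) under 0.05.

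The libraries held an estimated 5320000 to 8520000 reads on genes. Of 16809 genes tested, 76.5% were called, 32.9% higher and 43.6% lower in RCS cells, and the groups did not overlap at 78.9%. The share of calls that were higher was 43.0% as reported, 61.9% with quantile normalization, 53.3% with scaling to the library median and 50.1% with cyclic loess. The typical gene shifted towards RCS cells by 0.52 with quantile normalization and by 0.29 with median scaling, so a small difference is relative to the scaling. Cartilage markers were present in both groups. The summed level of 8 chondrocyte genes ran from 53664 to 74075 over the RCS libraries and from 99067 to 167173 over the rib libraries, with 2 genes higher, 2 lower and 4 neither.

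Oas1a was the member with the widest gap between the groups and the only one higher in RCS cells. Irf9, Mx1 and Isg15 were lower there, and Stat2, Irf1, Irf7, Ifih1 and Ddx58 did not pass the test. In all, 4 of the 9 members were called (44.4%, beside 76.5% of all genes tested). Of these 1 was higher (beside 32.9% of all genes) and 3 were lower (beside 43.6% of all genes). The groups did not overlap at 4 members, beside 78.9% of all genes. The median difference was 0.07 over the members and -0.15 over all genes tested. All 9 passed the filter on low values. Mx1 did so through the rib libraries alone and Oas1a through the RCS libraries, so for both the direction was set by the filter. Under quantile normalization 5 members were called higher and 1 lower, beside 8000 and 4924 of the 16809 genes tested. Under cyclic loess the members gave 3 and 1, beside 6242 and 6206 of all genes tested. The split of the members by direction thus rests on the scaling, as that of all genes does.

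**Figure D1:**
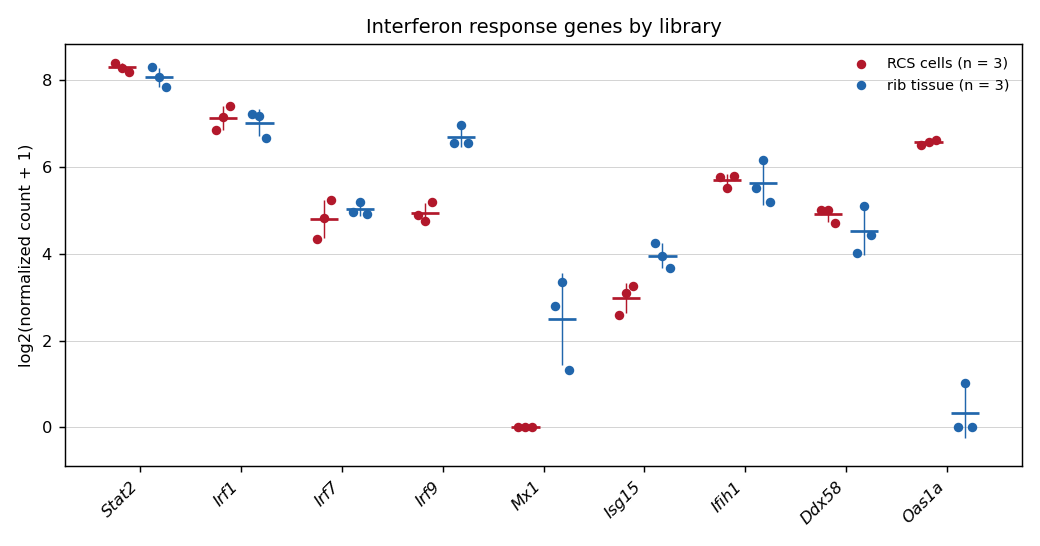
Level of each member in every library, as log2(normalized count + 1). Points are libraries, horizontal bars means and vertical bars ± 1 SD over 3 libraries, and the groups lie apart at Irf9, Mx1, Isg15 and Oas1a.

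The first members are parts of the complex that carries the interferon signal to DNA. Stat2 (ENSRNOG00000031081), the STAT protein particular to type I and type III interferon signalling, stood at 338, 312 and 293 normalized counts in RCS cells replicates 1 to 3. In rib tissue replicates 1 to 3 it was at 313, 267 and 229. The ranges overlapped, and the difference of 0.23 (SE 0.13, 95% interval -0.06 to 0.52) had a limma adjusted p of 0.126. It was called higher in RCS cells under median scaling (0.52) and without rib tissue replicate 1 (0.34).

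Irf9 (ENSRNOG00000019478), the DNA-binding partner of the STATs, was at 28.6, 26.0 and 35.8 normalized counts in RCS cells. It was at 92.7, 124 and 93.7 in rib tissue, so every rib library lay above every RCS library. The log2 level was 4.95 ± 0.23 in RCS cells and 6.69 ± 0.24 in rib tissue (SD, n = 3 libraries each). Irf9 was 3.35-fold lower in RCS cells (difference -1.75, SE 0.20, limma adjusted p 6.53e-05). The call held under all 16 alternatives, with differences of -1.96 to -0.83, the last under quantile normalization.

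Irf1 and Irf7 encode transcription factors that act up and down the pathway, IRF1 as an early interferon-gamma target and IRF7 as an amplifier of type I interferon production. Irf1 (ENSRNOG00000008144) was at 114, 142 and 168 normalized counts in RCS cells and 148, 145 and 101 in rib tissue. Both groups held low and high libraries, and the difference of 0.12 (SE 0.19, interval -0.33 to 0.57, limma adjusted p 0.604) turned negative under cyclic loess (-0.09) and without RCS cells replicate 3 (-0.02) or rib tissue replicate 3 (-0.06). Irf7 (ENSRNOG00000017414) was at 19.4, 27.3 and 36.6 in RCS cells and 30.1, 35.7 and 29.4 in rib tissue. The RCS libraries spanned the rib libraries, with a difference of -0.22 (SE 0.27, interval -0.84 to 0.39, limma adjusted p 0.462). With quantile normalization (1.46) and cyclic loess (0.62) Irf7 was called higher, and its sign also turned under median scaling (0.06) and without RCS cells replicate 1 (0.0015).

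The RNA sensors among the members did not pass the test. Ifih1 (ENSRNOG00000006227) was at 53.3, 45 and 54.6 normalized counts in RCS cells and 44.8, 71.0 and 35.8 in rib tissue. The rib libraries spread around the RCS libraries, and the difference was 0.07 (SE 0.26, interval -0.53 to 0.66, limma adjusted p 0.828). Its sign turned with array weights (-0.23) and when rib tissue replicate 3 was left out (-0.15), whereas quantile normalization gave a call of higher (1.27). Ddx58 (ENSRNOG00000006384) was at 31.5, 31.0 and 25.1 in RCS cells and 15.3, 33.3 and 20.6 in rib tissue. Only rib tissue replicate 2 lay above the RCS libraries, and the difference was 0.39 (SE 0.30, interval -0.31 to 1.09, limma adjusted p 0.268). A call of higher for Ddx58 appeared with quantile normalization (2.17), with cyclic loess (1.43) and without rib tissue replicate 2 (0.68). Dhx58, the related helicase LGP2 that tunes both sensors, did pass, at 131, 158 and 178 normalized counts in RCS cells against 25.1, 29.4 and 42.7 in rib tissue (4.76-fold higher, limma adjusted p 2.93e-05).

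The last members encode antiviral effectors, and they moved apart. Mx1 (ENSRNOG00000001959), a dynamin-like GTPase that blocks virus replication, had 0 in every RCS library, with 5.99, 9.23 and 1.5 normalized counts in rib tissue replicates 1 to 3. These rib values are about 7.91, 9.0 and 1.5 reads, so the gene was low in both groups and lowest in replicate 3 among the rib libraries. With a normalized count of 1 as the limit in the RCS libraries, Mx1 was at least 5.58-fold higher in rib tissue. The fitted difference was -2.49 (SE 0.50, limma adjusted p 0.00202). It moved with the pseudocount (-5.49 at 0.1 and -1.01 at 5), the call was lost under quantile normalization (-0.11) and cyclic loess (-0.03), and the gene was not tested under the filter of 5 CPM (counts scaled to a common library total).

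Isg15 (ENSRNOG00000021802), a ubiquitin-like protein that is joined to other proteins during the response, was also low, at 5.02, 7.53 and 8.5 normalized counts in RCS cells and 18, 14.4 and 11.7 in rib tissue. Every rib library lay above every RCS library, with 9.22 to 14.5 reads behind the RCS values and 11.7 to 23.8 behind the rib values. The difference was -0.98 (SE 0.30, limma adjusted p 0.0167). The call was lost under median scaling (-0.71) and without RCS cells replicate 1 (-0.78), and the direction turned under quantile normalization (1.38, called higher) and cyclic loess (0.69).

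**Figure D2:**
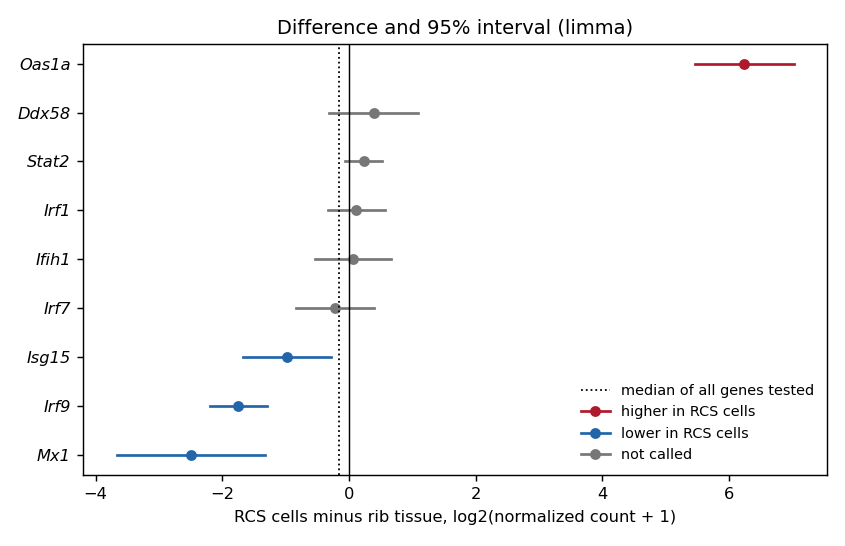
Difference of each member, RCS cells minus rib tissue on the log2(normalized count + 1) scale (points), with 95% intervals from limma (bars). Oas1a lies at 6.24 and Mx1, Irf9 and Isg15 below 0 (Isg15 above 0 under quantile normalization and cyclic loess), while the intervals of the other 5 members cross 0, and the dotted line marks the median of all genes tested (-0.15).

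Oas1a (ENSRNOG00000001369) encodes an oligoadenylate synthetase, an enzyme that, when it binds long paired RNA, makes a small messenger that sets off the breakdown of RNA in the cell. Its log2 level was 6.58 ± 0.06 in RCS cells and 0.34 ± 0.59 in rib tissue (SD, n = 3 libraries each). It was at 90.6, 95.2 and 98.0 normalized counts in RCS cells, about 166, 183 and 138 reads. In rib tissue it was listed at 0 in replicates 1 and 3 and at 1.03, or 1 read, in replicate 2. The difference was 6.24 (SE 0.34, 95% interval 5.46 to 7.02, limma adjusted p 9.69e-07), and the call held under all 16 alternatives (4.23 to 8.72). Oas1a passed the filter on low values through the RCS libraries alone. Most alternatives reuse that filter, so the constant direction is not independent of it. Taking the 1 listed rib read, RCS cells held 311 times the rib level (95% interval 55.5 to 1.23e+04, exact Clopper-Pearson). With 1 whole read allowed behind each of the rib zeros, 3 reads in all, the ratio was 104 (35.2 to 504). These intervals treat the summed reads as whole numbers and cover counting error only.

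Oas1a was not alone in its family. Oas1b, a close copy, was at 87.5, 104 and 125 normalized counts in RCS cells and 2.27, 1.03 and 2.0 in rib tissue. Oas1i was at 35.2, 32.7 and 31.4 against 1.14, 1.54 and 0, and Oas1k at 22.8, 23.4 and 23.6 against 2.65, 0 and 0. Oas1i had 2 entries, of which the one with the higher mean level was taken, and the other is not reported here. The larger synthetases followed, Oas2 at 62.6, 52.6 and 62.6 against 1.52, 3.08 and 6.9, and Oas3 at 15.9, 15.0 and 17 against 2.44, 1.03 and 2.0. In each of these genes all RCS libraries lay above all rib libraries. The differences were 5.28 for Oas1b, 4.28 for Oas1i, 3.98 for Oas1k, 3.80 for Oas2 and 2.62 for Oas3, with the highest limma adjusted p at 0.00014 (Oas1k). These 5 genes stayed called higher in RCS cells under every alternative that tested them. However, Oas1i and Oas1k passed the filter on low values only because of the RCS libraries, as Oas1a did. Under the filter of 5 CPM, Oas1b, Oas1i, Oas1k and Oas2 were tested only because of their RCS values. The direction in those cases is not independent of the filter. Copies of Oas1 resemble each other in sequence and how reads with several matches were counted is not given in the sources used here, so the split of reads among Oas1a, Oas1b, Oas1i and Oas1k is uncertain.

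A family member without the rise was Oasl2, an oligoadenylate synthetase-like gene. It was at 8.84, 5.99 and 11.3 normalized counts in RCS cells and 37.6, 47.7 and 44.7 in rib tissue, a difference of -2.22 (limma adjusted p 0.000121) that was no longer called under quantile normalization (-0.36).

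**Figure D3:**
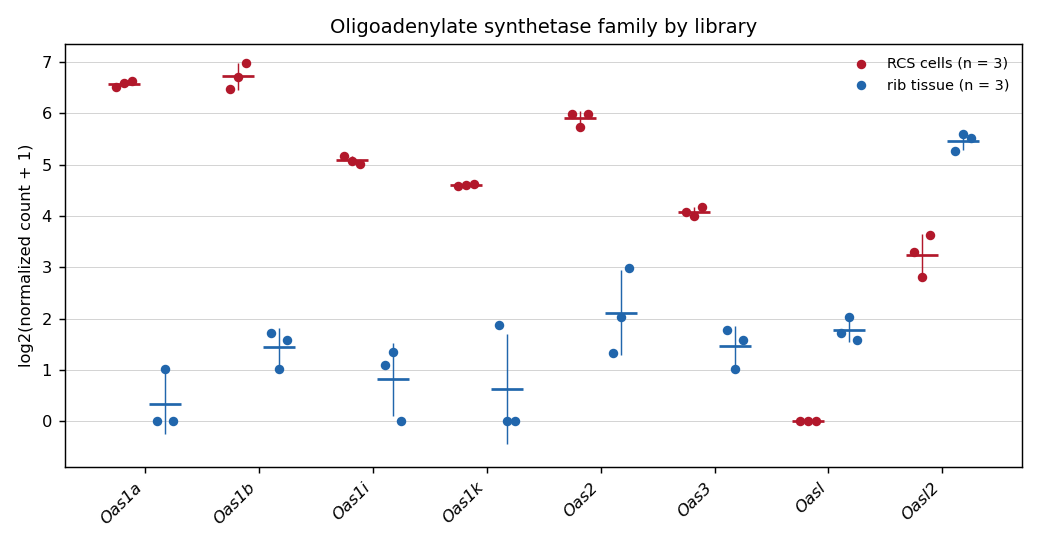
Levels of oligoadenylate synthetase genes in every library, as log2(normalized count + 1). Points are libraries, horizontal bars means and vertical bars ± 1 SD over 3 libraries. Oas1a, Oas1b, Oas1i, Oas1k, Oas2 and Oas3 are higher in all RCS libraries, while Oasl2, and Oasl at 2.0 to 3.08 normalized counts, are higher in all rib libraries, a difference that is not called for Oasl2 under quantile normalization and turns for Oasl under other scaling (up to 0.80).

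Promoter windows of 250 bases before to 50 bases after the annotated start were taken from RefSeq (build GRCr8) and found for 7 members, Stat2, Irf1, Irf7, Irf9, Mx1, Ifih1 and Oas1a. The interferon-stimulated response element was searched as GAAA, any 2 bases, GAAA on both strands (TTTC, any 2 bases, TTTC where the match is on the other strand), and overlapping matches were kept. The core was found in 3 of the 7 members, Oas1a, Irf7 and Ifih1, and in 3.92% of all 33469 windows. Shown here are stretches of 60 bases that hold it, 5′ to 3′ on the strand of the gene, with the core in capitals, for the members and for the synthetase genes Oas1b, Oas1i and Oas3 that were high with Oas1a.
Oas1a, chr12:41330405-41330464, + strand: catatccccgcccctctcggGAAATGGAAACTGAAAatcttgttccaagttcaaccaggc
Oas1b, chr12:41395872-41395931, - strand: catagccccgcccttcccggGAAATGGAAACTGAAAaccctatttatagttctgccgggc
Oas1i, chr12:41285166-41285225, + strand: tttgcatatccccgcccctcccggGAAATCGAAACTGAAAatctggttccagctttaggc
Oas3, chr12:41439617-41439676, + strand: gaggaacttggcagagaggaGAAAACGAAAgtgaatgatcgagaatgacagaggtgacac
Irf7, chr1:205800053-205800112, - strand: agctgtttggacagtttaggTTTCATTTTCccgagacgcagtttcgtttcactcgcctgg
Ifih1, chr3:67683988-67684047, - strand: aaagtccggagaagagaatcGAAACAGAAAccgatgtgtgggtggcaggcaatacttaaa
In Oas1a and Oas1b the capitals are the same run of 16 bases, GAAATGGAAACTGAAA, made of a pair of overlapping cores, which begins 41 and 59 bases before the start. A match is a description of the sequence and not a measured binding site.

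The gamma-activated site, a sequence bound by STAT pairs after interferon-gamma, was searched as TTCNNNGAA, the same on both strands. It was in 8.87% of all windows and in 3 of the 7 members, Irf1, Irf9 and Oas1a. It lies 142 bases before the start in Irf1 and 99 bases before it in Irf9, and is shown in capitals for these genes, which lack the response element core in their windows.
Irf1, chr10:38417773-38417832, + strand: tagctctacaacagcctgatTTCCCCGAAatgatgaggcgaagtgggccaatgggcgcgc
Irf9, chr15:33065717-33065776, + strand: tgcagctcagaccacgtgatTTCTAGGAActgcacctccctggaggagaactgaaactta
Neither motif was found in these windows of Stat2 and Mx1. The members with a response element core were thus Oas1a, higher in RCS cells, and Irf7 and Ifih1, which did not pass the test.

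Of 9 receptor and JAK kinase genes in the signalling chain above the members, 1 was higher in RCS cells, 6 lower and 2 neither. The share called was 77.8%, near the 76.5% of all genes tested, and the median difference was -0.55 beside -0.15 over all genes. Quantile normalization gave 2 higher and 4 lower, beside 8000 and 4924 of all 16809 genes tested, so the split depends on the scaling. Jak1 was 1.65-fold lower (limma adjusted p 3.80e-05) and Tyk2 1.53-fold lower (limma adjusted p 0.000969). The chains of the interferon-gamma receptor went opposite ways. Ifngr1, the ligand-binding chain, was at 133, 139 and 115 normalized counts in RCS cells and 316, 348 and 272 in rib tissue, 2.40-fold lower (limma adjusted p 2.80e-05). Ifngr2, the signalling chain, was at 290, 280 and 323 against 181, 161 and 172, 1.73-fold higher (limma adjusted p 0.000106).

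Interferon genes themselves were hardly seen. Of 7 ligand genes in the table, 6 were listed at 0 in all 6 libraries, among them Ifnb1 and Ifng. The only one tested was Ifnk, at 1.63, 0 and 0 normalized counts in RCS cells and 8.34, 17.7 and 9.0 in rib tissue (difference -3.12, limma adjusted p 0.0004, no longer called under quantile normalization at -0.36 and cyclic loess at -0.95). Ifnk passed the filter on low values only because of rib tissue, so its direction is not independent of the filter. A zero in this table allows a normalized count of up to 1, so low amounts were not detectable at this depth.

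Among 10 other STAT and IRF genes, RCS cells had 3 higher, 5 lower and 2 not called (median -0.33). The 8 calls are a share near the 76.5% of all genes tested. Irf4, a factor best known from lymphocytes, was at 87.6, 106 and 115 normalized counts in RCS cells and 13.3, 26.7 and 7.0 in rib tissue (7.05-fold higher, limma adjusted p 0.000308). Irf8, a factor of myeloid cells, had 0 in every RCS library against 36.2, 29.8 and 14.8 in rib tissue, at least 26.9-fold higher there. It passed the filter on low values through rib tissue alone, so its direction was set by the filter.

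All 14 tested sensor and adaptor genes were called, 7 in each direction (median -0.16), beside 76.5% of all genes tested, 32.9% higher and 43.6% lower. Higher in RCS cells were Mb21d1, the DNA sensor cGAS (4.95-fold, limma adjusted p 1.71e-05), Dhx58, the endosomal RNA sensor gene Tlr3 (2.52-fold, limma adjusted p 0.000563) and the kinase gene Tbk1 (2.29-fold, limma adjusted p 7.29e-06). The kinase most like Tbk1, Ikbke, went the other way, at 10.1, 7.6 and 10.6 normalized counts in RCS cells and 250.2, 213 and 292 in rib tissue. Among the 7 lower were also the adaptor genes Mavs (difference -0.69, limma adjusted p 0.00164) and Tmem173. Tmem173 was at 0, 2.08 and 1.77 in RCS cells and 11.4, 16.0 and 20.5 in rib tissue (difference -3.02, limma adjusted p 0.000483). It reached the filter on low values only with the rib libraries, so its direction is not independent of the filter. Tlr7, an endosomal RNA sensor of immune cells, had 0 in every RCS library against 36.5, 69.0 and 38.0 in rib tissue, at least 47.8-fold higher there. Tlr7 is 1 of 2 genes among the 7 lower that were listed at 0 in every RCS library, passed the filter through rib tissue alone and could not be called higher.

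Other interferon-induced effector genes were called in both directions. Of 52 tested, RCS cells had 22 higher, 21 lower and 9 not called, with a median of -0.03. The share called was 82.7%, near the 76.5% of all genes tested (32.9% higher, 43.6% lower). The synthetases Oas1b, Oas1i and Oas1k had the largest rises by the rule for named genes. Higher too were the RNA-sensing kinase gene Eif2ak2 (PKR, 2.39-fold), the exonuclease gene Isg20 (3.20-fold), Ifi35 (3.27-fold) and Parp10 (5.23-fold). The largest falls were in Ifitm3, which blocks entry of virus (1.09, 0 and 0 normalized counts in RCS cells against 189, 199.5 and 165), and in Ifit2 and Apol9a. Ifit2, which binds viral RNA, had 0 in every RCS library against 49.3, 91.8 and 43.6 in rib tissue, at least 61.6-fold higher there. Apol9a was at 0 in RCS cells and at 58.3, 60.01 and 28.0 in rib tissue, and Rsad2 (viperin) at 0 against 67.1, 74.1 and 15.8. In all, 9 of the tested effector genes were listed at 0 in every RCS library, so only rib tissue carried them past the filter and no call of higher was possible. Those at 0 in 2 RCS libraries, Ifitm3 among them, also passed only because of rib tissue. Conversely, Oas1i and Oas1k passed only because of the RCS libraries. The direction of all these genes is not independent of the filter. The split was 29 higher and 12 lower under quantile normalization, beside 8000 and 4924 of all 16809 genes tested. Under cyclic loess it was 24 higher and 16 lower, beside 6242 and 6206 of all genes tested.

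**Figure D4:**
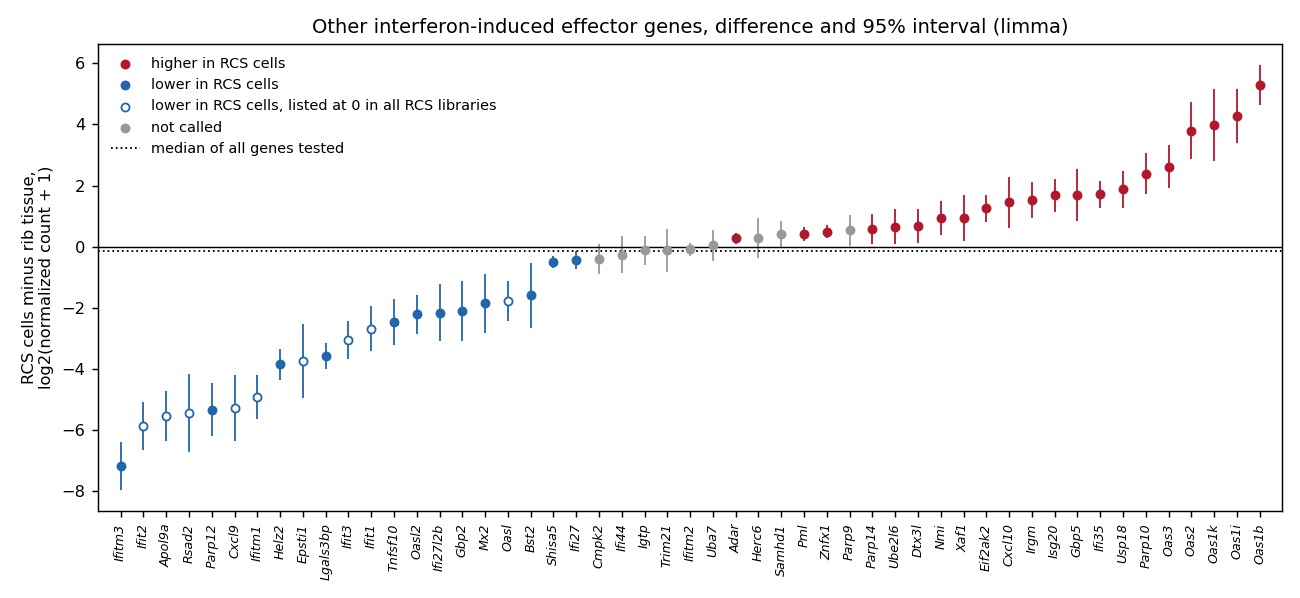
Difference of the tested effector genes outside the member list (all but 1 of the 52 are drawn), RCS cells minus rib tissue on the log2(normalized count + 1) scale, with 95% intervals from limma. Open circles are genes listed at 0 in all RCS libraries, whose fitted values depend on the pseudocount, and the oligoadenylate synthetase genes Oas1b, Oas1i, Oas1k, Oas2 and Oas3 form the upper end.

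The response element core was frequent in this list in either direction. It was in the windows of 13 of 16 genes higher in RCS cells, 12 of 16 lower and 4 of 9 that were neither, against 4.12% of all 27457 genes with a window. Among 17 negative regulators of the pathway, 8 were higher, 6 lower and 3 neither (median 0.24), 82.4% called beside 76.5% of all genes tested. Usp18, which removes ISG15 from proteins and damps the type I receptor, was at 30.8, 25.3 and 29.7 normalized counts in RCS cells and 5.77, 9.23 and 6.42 in rib tissue (difference 1.88, limma adjusted p 0.000242). Ptpn6, a phosphatase of blood cells, was at 0, 3.33 and 2.13 against 106, 92.1 and 71.2 (difference -5.23, limma adjusted p 3.07e-05). It reached the filter on low values only with the rib libraries, so its direction is not independent of the filter.

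Most of the marker genes tested in lists of other cells were lower in RCS cells, but the lymphoid list was mixed. Their counts of calls stand beside 32.9% higher and 43.6% lower in RCS cells over all genes tested. The summed level of 14 myeloid genes ran from 92.3 to 104 normalized counts over the RCS libraries, while rib tissue replicates 1 to 3 had 2709, 2898 and 1521. All 14 were lower in RCS cells, and 8, Ptprc and the C1q genes among them, were listed at 0 there. These 8 passed the filter on low values through rib tissue alone and could not be called higher. The sum of 10 endothelial genes ran from 302 to 345 over the RCS libraries, while the rib libraries had 4192, 5074 and 3139. All were lower, and 5, Cdh5 and Kdr among them, were at 0 in RCS cells, so these too could not be called higher. Sums were 765 to 780 against 39048 to 77666 for 8 fibroblast genes (7 lower, 1 neither) and 116 to 141 against 21308 to 38090 for 7 muscle genes (all lower). In each of these lists 1 gene was at 0 in every RCS library and could not be called higher. Lymphoid genes summed to 19.8 to 30.3 against 147 to 249, sums that include 8 genes not tested. The sums and the calls differed in direction. Of the 5 lymphoid genes tested, 2 were higher and 1 lower in RCS cells, with a median difference of 0.73. Cd3d, Ms4a1 and Nkg7 were at 0 in all 6 libraries. The 8 plasmacytoid dendritic cell genes, of which Bst2, Irf8 and Tlr7 also stand in the lists above, summed to 1344 to 1726 against 2500 to 2674 (5 of 6 tested lower). Irf8 and Tlr7 were at 0 in every RCS library and could not be called higher, and Bst2 was at 4.35, 7.26 and 3.95 there. Nearly all of the RCS sum thus came from other genes of the list, which holds Runx2 and Tcf4.

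Rib tissue replicate 3 had the lowest myeloid, endothelial, fibroblast, muscle and lymphoid sums of the rib libraries, and the highest plasmacytoid dendritic sum. In that last list, rib tissue replicates 1 to 3 had Irf8 at 36.2, 29.8 and 14.8 normalized counts and Bst2 at 22.7, 27.3 and 8.0. Tlr7 was at 36.5, 69.0 and 38.0 there. Nearly all of the rib sums thus came from other genes of the list, so they do not measure that cell type. Rib tissue replicate 3 also had the lowest rib values of Mx1, Isg15, Ifih1, Stat2, Irf1 and Irf7. Irf9 and Ddx58 were lowest in rib tissue replicate 1 instead. The part of these cells in the members' differences was not tested. In bulk tissue, fewer cells of a type and less RNA per cell cannot be told apart. Without rib tissue replicate 3, Mx1 was at -3.08, Isg15 at -1.12, Irf9 at -1.81 and Oas1a at 6.07, all still called.

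Closeness of pattern was measured as the root mean square difference between profiles over the 6 libraries, each centred on its own mean, among 14723 tested genes with a symbol. Nearest to Oas1a were Dppa4 (0.128), Icos (0.154) and Nkx2-2 (0.321). Dppa4 was at 240, 232 and 212 normalized counts in RCS cells and 1.01, 3.95 and 1.33 in rib tissue. Nearest to Mx1 were Asb11 (0.097), VWA3B (0.0976) and Epx (0.116), all listed at 0 in every RCS library. The profiles share the 6 libraries and their depth, and the likeness is a description with no test.

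**Figure D5:**
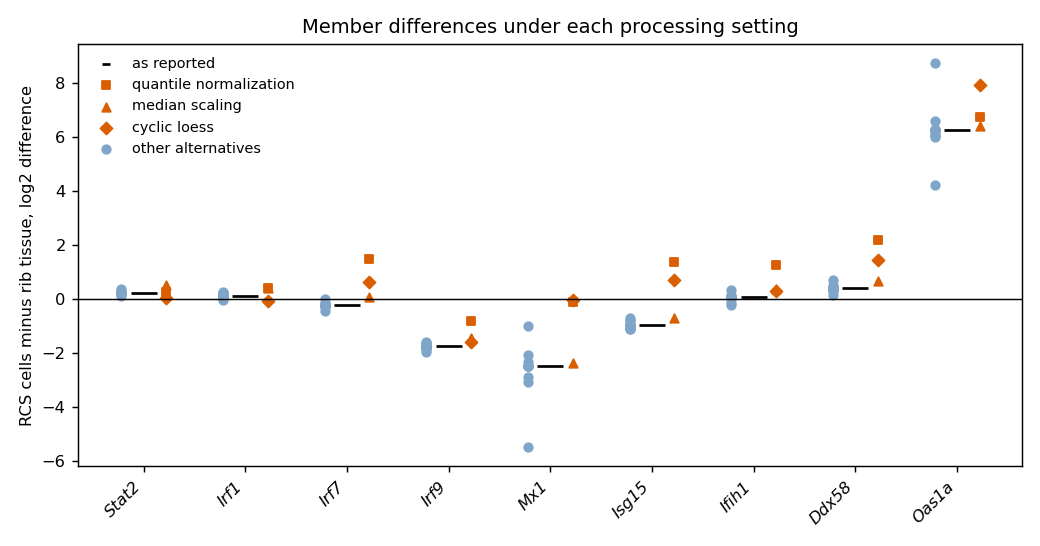
Difference of each member, RCS cells minus rib tissue on a log2 scale, as reported (black bar) and under each alternative (points). Oas1a (its direction set by the filter on low values) stays above 0 and Irf9 below 0 throughout, while Isg15, Irf7, Irf1 and Ifih1 lie on both sides of 0.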

How the data were processed

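Total RNA from 3 libraries of each group was sequenced, and titles gave the groups and replicate numbers. The authors deposited 1 table of log2 values for 27217 genes. Per the submitters' processing notes CASAVA 1.8, DESeq and rn5 were involved, without roles. For aligner, counting rule and strand, the sources used here give nothing. The unit was inferred: low values, taken out of log2, share a step that is the same for all genes of a library, which marks them as reads over a library factor, not per length. Only 39.5% to 55.6% of low values per library came within 0.01 of a whole read, so count models were not applied to the calls. The intervals of the Oas1a ratio do assume whole reads, summed over the libraries of a group and rounded.

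Depth is the summed normalized count over the step (0.519 to 1.03 normalized counts per read), and up to 1.93 reads can lie behind a listed 0. The 16809 genes tested reached a normalized count of 1 in 3 or more libraries. The test was limma 3.58.1 (R 4.3.3), two-sided, with empirical Bayes moderation along an intensity trend, adjusted by Benjamini-Hochberg over those genes, and the fit was tested on simulated data. No fold is given for group means below 10 normalized counts, except lower bounds and the Oas1a ratio. RefSeq windows were matched by Entrez identifier or symbol.

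The members and lists were chosen with earlier results of these data known. Of 121 names in 6 related lists, 114 were found. Named by rule were all members, the largest called rise and fall of each related list (3 each way for effectors, mean of at least 10 normalized counts in the higher group) and the 3 genes nearest in pattern to Oas1a and to Mx1. The 14 genes Jak1, Tyk2, Dhx58, Tlr3, Tbk1, Ikbke, Oas2, Oas3, Oasl2, Rsad2, Isg20, Ifi35, Parp10 and Eif2ak2 were named after their values were seen, as were Oasl, Ifnb1, Ifng, Mavs and Tmem173. Some genes of the lists are counted but not reported here by name. The 16 alternatives were quantile, median and cyclic loess scaling, no filter, a filter of 5 CPM in 3 libraries, pseudocounts of 0.1 and 5, no intensity trend, array weights, a replicate block, and leaving out each library.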

Additional observations from a re-analysis of the deposited data

How the results depend on the processing

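Of the members, Oas1a and Irf9 kept direction and call under all 16 alternatives. For Oas1a the direction was set by the filter on low values, which most alternatives reuse, so its constancy is not an independent check. The count of members higher in RCS cells, 1 as reported, was 5 under quantile normalization, 2 under median scaling, 3 under cyclic loess and 1 to 2 with a library left out (2 without rib tissue replicate 1, which adds Stat2, or replicate 2, which adds Ddx58). The count lower, 3 as reported, was 1 under quantile normalization, cyclic loess and the filter of 5 CPM, which drops Mx1 and Isg15 from the test, and 2 to 3 with a library left out. Direction turned for Isg15 (1.38 under quantile normalization, 0.69 under cyclic loess), Irf7 (1.46, 0.0596 under median scaling, 0.62 under cyclic loess and 0.0015 without RCS cells replicate 1, the range with a library left out being -0.44 to 0.0015), Irf1 (-0.0935 under cyclic loess, -0.015 without RCS cells replicate 3 and -0.0615 without rib tissue replicate 3, range -0.0615 to 0.26) and Ifih1 (-0.23 with array weights, -0.15 without rib tissue replicate 3, range -0.15 to 0.34). In the related lists, quantile normalization gave 2 receptor and kinase genes higher, 0 ligand genes lower, 12 effectors lower and 3 negative regulators lower, and cyclic loess gave 0 ligand genes lower. The filter of 5 CPM tested fewer genes and gave 0 ligand genes, 3 STAT and IRF genes, 4 sensor and adaptor genes and 10 effectors lower. Negative regulators called higher numbered 5 to 8 with a library left out (5 without RCS cells replicate 2). Other causes were not tested.

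Pairing by the shared replicate numbers was not seen (correlations of same-numbered deviations of 0.064, -0.076 and 0.047), although 3 libraries per group cannot exclude it. With the replicate block, 1 member was higher and 3 were lower, as without it, and 5536 genes were higher and 7340 lower over all genes. Depth limits Mx1 and Isg15, with at most 9.0 and 23.8 reads in a library, and the size of the Oas1a ratio, which rests on 1 rib read.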
